A study of Mus musculus with 4 samples.

Results

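The matricellular genes described here are 10 rows of a table of 43346 genes, chosen by gene symbol: the CCN genes Ctgf, Cyr61, Wisp1 and Wisp2, the thrombospondin genes Thbs1, Thbs4 and Comp, and Postn, Tnc and Spp1. They were followed in total RNA from hearts of C57BL/6 mice aged 6 weeks, 2 of genotype WT and 2 of genotype PRMT1-cKO. In the PRMT1-cKO mice the arginine methyltransferase gene Prmt1 was deleted in cardiomyocytes, so the other cells of the heart keep the gene. The Cre line that drives the deletion, and whether the WT mice carried floxed alleles or Cre, are not stated in the labels. The labels give no injury to either group, and the study asked how the mRNA profile and splicing differ between the genotypes.

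Matricellular proteins are secreted into the extracellular matrix but do little to hold it together. They bind integrins, syndecans, growth factors and proteases, and so tune how cells attach, migrate and respond to TGF-beta. Most are scarce in the healthy adult heart and are known to be made again after infarction or pressure overload, largely by fibroblasts, with a part from macrophages and stressed cardiomyocytes.

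Reads assigned to genes numbered between 18291730 and 25509854 per heart, and the mitochondrial ribosomal RNA gene mt-Rnr2 took between 51.2 and 65.8% of them, with the lower shares in PRMT1-cKO. A gene read is either an exon read or an intron read. Exon reads numbered between 544891 and 764806 per heart, and of 2605955 in all hearts 29 did not cross an exon junction, so an exon read stands for spliced RNA. Reads that lie inside 1 exon are nearly absent from the table. Of the 6705 exon reads of the 10 matricellular genes, 0 lay inside a single exon. Prmt1 itself had 33 and 18 gene reads in WT against 33 and 44 in PRMT1-cKO with 0 exon reads in every heart, so its deletion cannot be checked here.

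The spliced RNA that the exon reads count is shown at 1 coding junction for each of the 6 matricellular genes with enough exon reads to test, with 25 bases on each side. The sequences are from GENCODE M21 transcripts on GRCm38, written 5′ to 3′ on the gene's strand, with the 5′ exon in lower case and the 3′ exon in capitals.
Ctgf, exons 3 and 4: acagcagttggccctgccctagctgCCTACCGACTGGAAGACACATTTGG
Cyr61, exons 3 and 4: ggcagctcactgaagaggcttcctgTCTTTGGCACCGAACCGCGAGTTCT
Wisp2, exons 3 and 4: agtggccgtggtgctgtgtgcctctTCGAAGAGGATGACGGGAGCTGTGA
Thbs1, exons 11 and 12: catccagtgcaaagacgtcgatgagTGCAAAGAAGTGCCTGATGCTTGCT
Thbs4, exons 11 and 12: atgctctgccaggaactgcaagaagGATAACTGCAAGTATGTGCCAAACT
Comp, exons 10 and 11: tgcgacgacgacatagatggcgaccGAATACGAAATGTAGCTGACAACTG
The Wisp2 junction joins base 163825357 to base 163828852 of chromosome 2, and the Comp junction joins base 70377256 to base 70378614 of chromosome 8.

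Of the 10 genes, 8 had more RNA in the PRMT1-cKO hearts, and the remaining 2, Tnc and Spp1, had too few reads to test. Of all 13869 genes tested in gene reads, 11.5% rose (quasi-likelihood test of edgeR, adjusted p under 0.05 by Benjamini-Hochberg, n = 2 hearts per group). The 8 genes that rose had both PRMT1-cKO values above both WT values, which held for 30.4% of the genes tested. Spp1, which was not among the genes tested, had them too, but on 4 and 0 gene reads in WT against 6 and 7 in PRMT1-cKO. The log2 changes of the 8 that rose ran from 1.21 for Wisp1 to 4.92 for Wisp2. These hearts are mixtures of cells, and in such bulk RNA fewer or more cells of a type and less or more RNA per cell cannot be told apart.

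**Figure D1:**
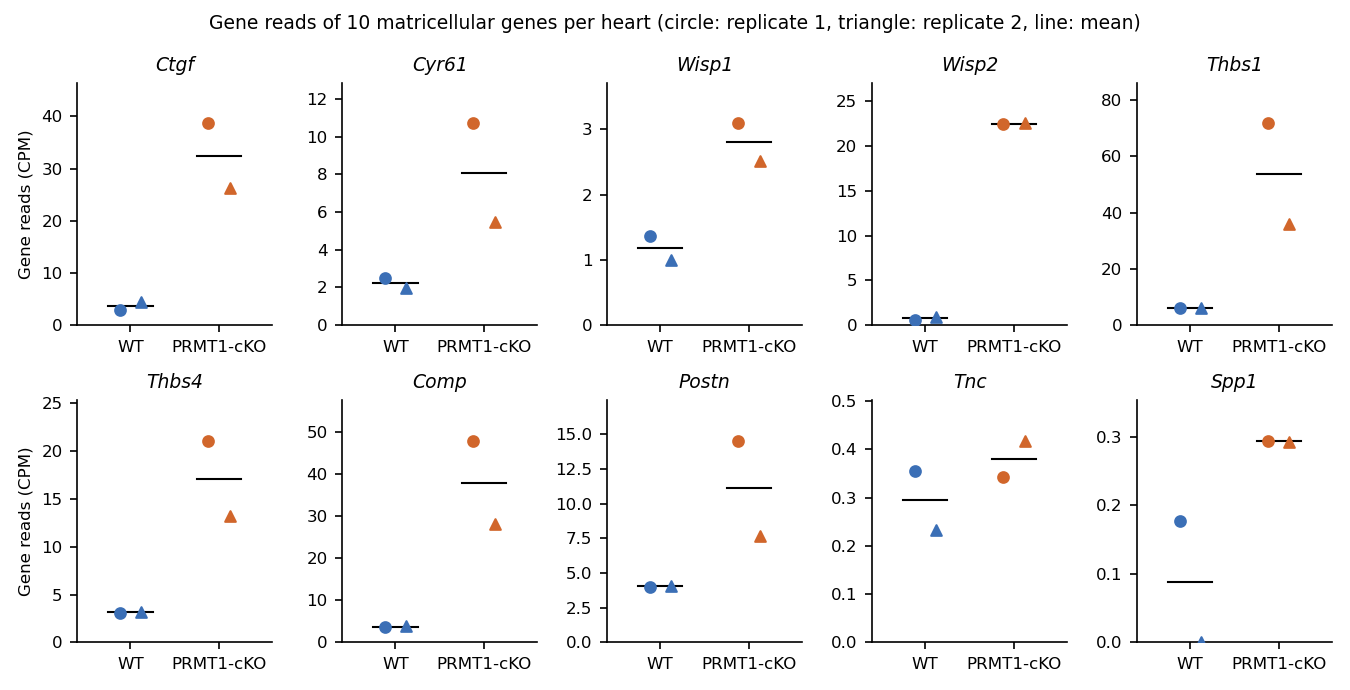
Gene reads of the 10 matricellular genes as counts per 1000000 reads (CPM, scaled by TMM) (y axis, linear, own scale per gene) in each WT and PRMT1-cKO heart, with circles for replicate 1, triangles for replicate 2 and a line at the mean. In the Wisp2 panel both PRMT1-cKO hearts lie near 22.5 and both WT hearts under 1, while the Tnc values of the groups overlap.

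Wisp2 changed most among them. It encodes CCN5, a CCN protein that lacks the C-terminal domain of its relatives and is known in mouse heart to oppose fibrosis. Its gene, ENSMUSG00000027656, spans chr2:163820861-163833146 on GRCm38. The hearts had 13 and 16 gene reads in WT against 457 and 539 in PRMT1-cKO, or 0.576 and 0.936 against 22.4 and 22.5 CPM. The PRMT1-cKO hearts stood far above WT and almost at the same level as each other. The change was 30.3-fold, a log2 change of 4.92 ± 0.27 (SE, n = 2 per group, edgeR adjusted p = 1.26e-09). Counted from the largest rise, Wisp2 held rank 18 of the 13869 genes.

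Most Wisp2 reads lay outside its exons. Intron reads numbered 13 in each WT heart and 400 and 510 in PRMT1-cKO, a log2 change of 4.95 ± 0.27 (edgeR adjusted p = 6.97e-14) and rank 6 of 13217 genes tested in intron reads. Exon reads numbered 0 and 3 in WT against 57 and 29 in PRMT1-cKO, so reads across Wisp2 junctions were nearly absent in WT. With 3 summed reads in WT against 86, the ratio of scaled exon reads was 24.0, with an exact 95% counting interval from 7.94 to 119. The exon change passed the test (log2 4.46 ± 0.68, edgeR adjusted p = 9.69e-05), but the gene passed the read filter through the PRMT1-cKO hearts alone, and the log2 value was 3.40 without WT replicate 1 and 8.35 without WT replicate 2.

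Ctgf, which encodes the profibrotic protein CCN2, spans chr10:24595442-24598683 (ENSMUSG00000019997). It had 66 and 76 gene reads in WT against 788 and 627 in PRMT1-cKO, or 2.92 and 4.44 against 38.7 and 26.2 CPM. The lower PRMT1-cKO heart was 5.90-fold above the higher WT heart. The rise was 8.89-fold, a log2 change of 3.15 ± 0.26 (edgeR adjusted p = 4.96e-08). All Ctgf reads were exon reads, and with its 381 bases of annotated intron it had 0 intron reads in every heart, so the same counts on the exon scale gave a log2 value of 3.05 ± 0.17 (edgeR adjusted p = 1.63e-09). The antisense gene Gm15270 overlaps Ctgf, and whether strand was used in counting is not given, so reads of the overlap cannot be told apart. Gm15270 moved the other way, from 174 and 168 to 53 and 75 gene reads (log2 -1.60 ± 0.23, edgeR adjusted p = 3.80e-05).

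Cyr61 encodes CCN1, an immediate-early matrix protein of angiogenesis and repair, and spans chr3:145646971-145649985 (ENSMUSG00000028195). Its gene reads were 56 and 34 in WT against 218 and 131 in PRMT1-cKO, or 2.48 and 1.99 against 10.7 and 5.48 CPM. The groups did not overlap, though the PRMT1-cKO hearts differed from each other 1.95-fold. The rise was 3.56-fold, a log2 change of 1.83 ± 0.29 (edgeR adjusted p = 1.11e-04). Its exon reads went from 36 and 22 to 180 and 112 (log2 2.06 ± 0.26, edgeR adjusted p = 1.26e-05). Its intron reads, 20 and 12 in WT against 38 and 19 in PRMT1-cKO, did not pass (log2 0.72 ± 0.43, edgeR adjusted p = 0.271). That intron value was 1.25 without PRMT1-cKO replicate 2 (edgeR adjusted p = 0.0261), but -0.08 on leaving out PRMT1-cKO replicate 1 (edgeR adjusted p = 0.950).

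Wisp1 encodes CCN4, a CCN protein induced by Wnt signalling, and spans chr15:66891320-66923201 (ENSMUSG00000005124). It had the smallest change of the 8, with 31 and 17 gene reads in WT against 63 and 60 in PRMT1-cKO, or 1.37 and 0.994 against 3.09 and 2.51 CPM. The groups did not overlap. The rise was 2.32-fold, a log2 change of 1.21 ± 0.31 (edgeR adjusted p = 0.00724). Without WT replicate 2 it no longer passed (edgeR adjusted p = 0.0836), nor did it with DESeq2. Its exon reads were too few to test, 2 and 0 in WT against 3 and 0 in PRMT1-cKO. The call therefore rests on intron reads (29 and 17 against 60 and 60, log2 1.24 ± 0.31, edgeR adjusted p = 0.00387). Exon reads were a small part of the gene reads of most genes, a median of 2.94 to 4.35% per heart. Few exon reads thus do not show that spliced Wisp1 RNA was scarce.

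Thbs1 encodes thrombospondin-1, which activates latent TGF-beta and binds CD36 and CD47, and spans chr2:118111876-118127133 (ENSMUSG00000040152). It had the most reads of the 10 genes, 136 and 103 in WT against 1460 and 860 in PRMT1-cKO. The WT hearts were level at 6.02 CPM each, and the PRMT1-cKO hearts stood at 71.7 and 36.0 CPM, 1.99-fold apart. The rise was 8.92-fold, a log2 change of 3.16 ± 0.28 (edgeR adjusted p = 1.55e-07). On leaving out PRMT1-cKO replicate 1 it was 2.55. Exon reads (110 and 90 against 1296 and 742) rose too, with a log2 value of 3.07 ± 0.19 (edgeR adjusted p = 7.28e-09). Intron reads (26 and 13 against 164 and 118) rose by 2.73 ± 0.30 (edgeR adjusted p = 7.43e-08). Thbs1 overlaps the antisense gene Gm29233, which had 0 reads in every heart.

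Thbs4 encodes thrombospondin-4, known in mouse heart as a stress-induced protein of the matrix and the endoplasmic reticulum, and spans chr13:92751590-92794818 (ENSMUSG00000021702). Gene reads were 69 and 55 in WT against 430 and 315 in PRMT1-cKO, or 3.06 and 3.22 against 21.1 and 13.2 CPM. The groups lay well apart. The rise was 5.45-fold, a log2 change of 2.45 ± 0.25 (edgeR adjusted p = 6.09e-07). Exon reads went from 49 and 42 to 381 and 275 (log2 2.58 ± 0.19, edgeR adjusted p = 3.99e-08). Intron reads went from 20 and 13 to 49 and 40 (log2 1.29 ± 0.36, edgeR adjusted p = 0.00937), a call that fell away without WT replicate 2 (edgeR adjusted p = 0.0538), on leaving out PRMT1-cKO replicate 1 (edgeR adjusted p = 0.120) and with DESeq2 (adjusted p = 0.0827).

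Comp, also called thrombospondin-5, is a pentameric collagen-binding protein best known from cartilage and tendon, and spans chr8:70373548-70382065 (ENSMUSG00000031849). Gene reads were 81 and 66 in WT against 975 and 669 in PRMT1-cKO, or 3.59 and 3.86 against 47.9 and 28.0 CPM. The lower PRMT1-cKO heart was 7.25-fold above the higher WT heart. The rise was 10.2-fold, a log2 change of 3.35 ± 0.26 (edgeR adjusted p = 3.16e-08). Nearly all of it was spliced RNA, with exon reads of 68 and 54 in WT against 936 and 645 in PRMT1-cKO (log2 3.43 ± 0.18, edgeR adjusted p = 5.73e-10). Intron reads were 13 and 12 in WT against 39 and 24 in PRMT1-cKO (log2 1.19 ± 0.43, edgeR adjusted p = 0.0465), and the log2 change was 0.60 on leaving out PRMT1-cKO replicate 1. The intron call was lost with DESeq2 (adjusted p = 0.220). It was also lost when either WT heart or PRMT1-cKO replicate 1 was left out (edgeR adjusted p = 0.267, 0.0831 and 0.514).

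Postn encodes periostin, the marker protein of activated fibroblasts in injured heart, and spans chr3:54361109-54391034 (ENSMUSG00000027750). Gene reads were 90 and 70 in WT against 296 and 184 in PRMT1-cKO, or 3.99 and 4.09 against 14.5 and 7.70 CPM. The WT hearts were almost level, and the PRMT1-cKO hearts were higher and 1.89-fold apart. The rise was 2.74-fold, a log2 change of 1.45 ± 0.26 (edgeR adjusted p = 3.65e-04). Exon reads numbered 0 and 1 in WT against 1 and 5 in PRMT1-cKO, under the read filter. Postn has 36 exons in the table, yet of 296 and 184 gene reads in PRMT1-cKO only these few were counted as exon reads, whereas Cyr61, with 5 exons and fewer gene reads, had 180 and 112 in the same hearts. Why the Postn junctions are almost without reads was not tested, so its intron reads cannot be taken as a plain measure of unspliced RNA. The call rests on these intron reads (90 and 69 against 295 and 179, log2 1.46 ± 0.25, edgeR adjusted p = 6.50e-05), whose log2 change was 0.84 without PRMT1-cKO replicate 1.

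Tnc and Spp1 stayed near the limit of detection. Tnc encodes tenascin-C, a de-adhesive protein at borders of damaged heart muscle, and spans chr4:63959785-64047015 (ENSMUSG00000028364). It had 8 and 4 gene reads in WT against 7 and 10 in PRMT1-cKO, and the groups overlapped on the CPM scale. It also overlaps the antisense gene 8030451A03Rik, with 18 and 13 gene reads in WT against 22 and 14 in PRMT1-cKO. Spp1 encodes osteopontin, an integrin-binding phosphoprotein made in large amounts by activated macrophages, and spans chr5:104435118-104441050 (ENSMUSG00000029304). It had 4 and 0 gene reads in WT against 6 and 7 in PRMT1-cKO. A count of 0 allows up to 3 reads, so a difference of this size was not detectable at this depth. With no read filter neither passed (Tnc log2 0.34 and edgeR adjusted p = 0.824, Spp1 log2 1.51 and edgeR adjusted p = 0.402). In the authors' deposited table the corrected p-value was 1 for Tnc and 0.705 for Spp1.

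**Figure D2:**
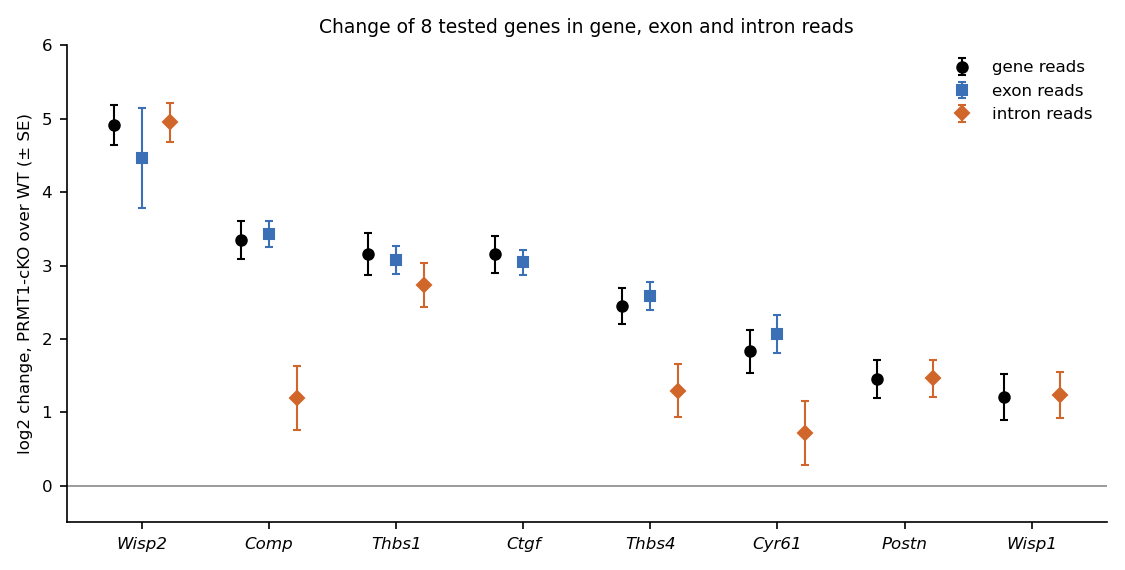
Log2 change of PRMT1-cKO over WT (y axis) for each matricellular gene tested, in gene, exon and intron reads, with bars of 1 SE from edgeR. Wisp2 has the highest value in each kind of read, and for Comp, Thbs4 and Cyr61 the exon point lies higher than the intron point.

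Exon and intron reads could be set side by side for some of these genes. Of the 10 genes, 6 had enough exon reads to test, and Wisp2, Comp, Thbs1, Ctgf, Thbs4 and Cyr61 all rose, against 17.6% of all genes tested in exon reads. In intron reads 7 could be tested and 6 rose, against 10.8% of all genes tested, and Cyr61 did not pass. Wisp2 passed the exon filter through its high group, so these counts describe the genes that could be tested and not all 10.

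The share of gene reads that crossed a junction differed widely among the 10 genes. In Comp it was 84.0 and 81.8% in WT against 96.0 and 96.4% in PRMT1-cKO, and in Thbs4 71.0 and 76.4% against 88.6 and 87.3%. In Cyr61 it was 64.3 and 64.7% in WT against 82.6 and 85.5% in PRMT1-cKO. For these 3 genes both PRMT1-cKO shares were above both WT shares, out of 6 matricellular genes with at least 20 gene reads in every heart. The same held for 18.9% of all such genes with at least 2 exons, and for 23.4% of those with a mean exon share over 50%. Exon reads also took a larger part of each whole PRMT1-cKO library, 4.18 and 3.60% of gene reads against 2.45 and 2.51% in WT. The gene reads they are set against include those of genes with no annotated exon. Such genes took 72.0 and 73.4% of gene reads in WT against 63.7 and 61.7% in PRMT1-cKO. The part of these library differences in the shares of single genes was not tested. Thbs1 had 80.9 and 87.4% in WT against 88.8 and 86.3% in PRMT1-cKO, and its groups overlapped. Ctgf, also among the 6, was at 100% in every heart, so its share could not go higher in PRMT1-cKO. Wisp2 had 0 and 18.8% in WT against 12.5 and 5.38% in PRMT1-cKO, and Postn stayed at or below 2.72% in every heart. Over 9663 genes with at least 2 exons and 20 reads the median share was between 2.94 and 4.35% per heart.

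Whether the exon change exceeded the intron change was tested within each gene with both kinds of read. The test passed in either direction for 3.88% of genes, and the median difference over all genes was 0.18 on the log2 scale. It passed with the exon change above for 1.95% and below for 1.93% of genes. Of the 5 matricellular genes in this test Comp passed, with an exon log2 change 2.37 above that of its introns (diffSpliceDGE in edgeR, adjusted p = 0.00154). That call fell away without WT replicate 1 (edgeR adjusted p = 0.266) or WT replicate 2 (edgeR adjusted p = 0.324). Cyr61 at 1.50 (edgeR adjusted p = 0.283) and Thbs4 at 1.41 (edgeR adjusted p = 0.195) did not pass, nor did Thbs1 and Wisp2.

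**Figure D3:**
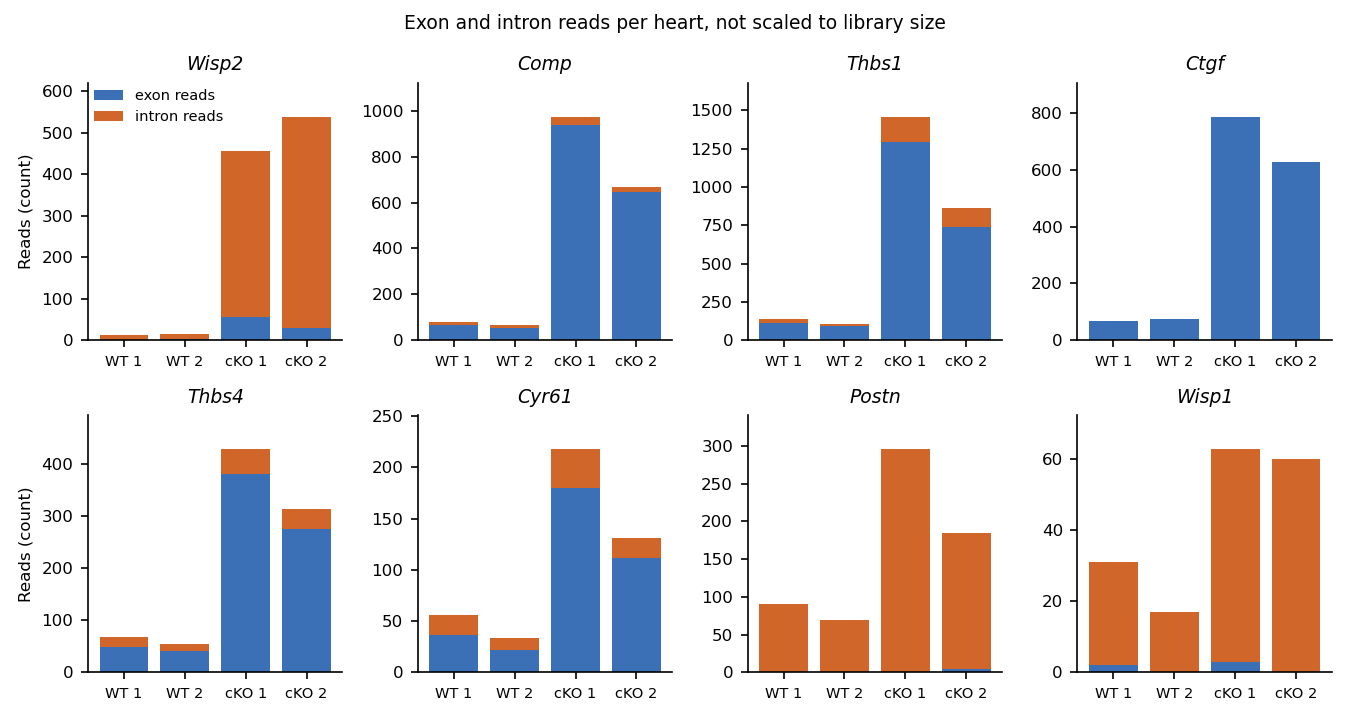
Exon reads and intron reads (stacked bars, y axis in reads, own scale per gene, not scaled to library size) in each heart for the 8 matricellular genes that could be tested. Ctgf, Comp, Thbs1, Thbs4 and Cyr61 are mostly exon reads, whereas Wisp2, Postn and Wisp1 are mostly intron reads.

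Levels of different genes depend on the length they are set against, and their order differed between the 2 scales tried. The deposited RPKM counts exon reads per kilobase of exon, but since these reads lie on junctions alone, a gene with many short exons is favoured over one with few long ones. On that scale Comp stood at 21.1 and 14.2 RPKM in PRMT1-cKO, Ctgf at 15.1 and 11.7, Thbs1 at 11.7 and 6.54, Thbs4 at 6.33 and 4.48, Cyr61 at 4.85 and 2.96 and Wisp2 at 1.62 and 0.807. In WT the values were 1.10 and 1.03 RPKM for Comp, 0.904 and 1.22 for Ctgf, 0.710 and 0.683 for Thbs1, 0.584 and 0.588 for Thbs4, 0.696 and 0.500 for Cyr61 and 0 and 0.0718 for Wisp2. Set against the junctions of the transcripts shown above, Ctgf came first in PRMT1-cKO, with 197 and 157 exon reads per junction over its 4 junctions. Thbs1 had 61.7 and 35.3 over 21 junctions and Comp 52.0 and 35.8 over 18, and they overlapped each other and Cyr61 at 45.0 and 28.0. Thbs4 had 18.1 and 13.1 exon reads per junction and Wisp2 14.3 and 7.25, and these overlapped as well. Wisp2 had the lowest level of the 6 in RPKM and per junction in both PRMT1-cKO hearts, where its intron reads numbered 38.6 and 49.2 per kilobase of intron against 1.25 in each WT heart.

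The PRMT1-cKO hearts were not alike across the genes. Replicate 1 was above replicate 2 in CPM of gene reads for Thbs1, Cyr61, Postn, Comp, Thbs4, Ctgf and Wisp1, by 1.99-fold in Thbs1 down to 1.23-fold in Wisp1, whereas Wisp2 had a ratio of 0.995. In exon reads replicate 1 was above replicate 2 for all 6 genes tested, with ratios of 1.70 for Wisp2, 1.51 for Thbs1, 1.39 for Cyr61, 1.26 for Comp, 1.20 for Thbs4 and 1.09 for Ctgf. Ctgf has the same counts in both kinds of read, so its 1.47 in gene reads against 1.09 in exon reads comes from the scaling of the libraries alone. The same scaling enters the gene-read ratios of the other genes. The fibroblast markers of the same hearts summed to 1135 and 697 CPM in gene reads, with replicate 1 also the higher. In exon reads their sums were closer, 28296 CPM in replicate 1 and 22124 CPM in replicate 2. Their part in the difference between these hearts was not tested.

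Promoter sequence was at hand in RefSeq (GRCm38.p6) for 5 of the 10 genes, in 8 windows of 250 bases before a start site. Those of Cyr61 and Thbs4 are shown because they held the TEAD motif. No other gene with a window had enough exon reads to test. The motifs GGAATG (TEAD), CAGACA (SMAD), TGANTCA (AP-1), TATAAA and the CArG box were searched on both strands, and their matches are in capitals.
Cyr61, chr3:145649986-145650235, minus strand: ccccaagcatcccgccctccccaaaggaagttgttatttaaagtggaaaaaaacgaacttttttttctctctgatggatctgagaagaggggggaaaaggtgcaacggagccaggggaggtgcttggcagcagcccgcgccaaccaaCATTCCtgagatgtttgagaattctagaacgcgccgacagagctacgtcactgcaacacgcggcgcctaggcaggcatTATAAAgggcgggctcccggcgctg
Thbs4, chr13:92794819-92795068, minus strand: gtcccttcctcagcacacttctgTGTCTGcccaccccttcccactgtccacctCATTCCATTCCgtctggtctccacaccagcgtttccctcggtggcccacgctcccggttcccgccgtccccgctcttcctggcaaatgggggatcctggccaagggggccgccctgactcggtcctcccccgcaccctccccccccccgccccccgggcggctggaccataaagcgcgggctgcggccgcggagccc
Cyr61 held GGAATG on the reverse strand 103 to 98 bases upstream and TATAAA 25 to 20 bases upstream. Thbs4 held GGAATG on the reverse strand at 197 to 192 and at 192 to 187 bases upstream, sharing 1 base, and CAGACA on the reverse strand 227 to 222 bases upstream. Of 32851 such mouse promoter windows 12.6% held GGAATG, 12.4% TATAAA, 17.1% CAGACA, 6.75% TGANTCA and 1.47% a CArG box. A Postn window held TATAAA, and windows of Tnc and Spp1 held TATAAA or CAGACA. Such matches describe letters and say nothing of binding. Ctgf, Wisp1, Wisp2, Thbs1 and Comp had no window in this table.

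Many relatives of these genes also rose. Of 28 other matricellular genes 25 were tested and 17 rose, 0 fell and 8 did not pass, with a median log2 change of 0.92 where the median of all genes lay near 0. The galectin-3 gene Lgals3 rose by 2.42 ± 0.24 and the angiopoietin-like gene Angptl4 by 2.20 ± 0.37 on the log2 scale. Cthrc1, a collagen triple helix protein of activated fibroblasts, had 0 and 1 gene reads in WT against 16 and 10 in PRMT1-cKO, a ratio of 23.3 with a counting interval from 3.83 to 955, and its call fell away without WT replicate 1 (edgeR adjusted p = 0.130). The CCN gene Nov had a log2 change of 0.29 and did not pass, Wisp3 had too few reads to test, and Thbs3 had 0 reads in every heart.

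Of 20 receptors for these proteins 19 were tested, and 9 rose and 2 fell, with a median log2 change of 0.48. Of all genes tested 11.2% fell. The integrin gene Itgb3 rose by a log2 change of 1.86 ± 0.33, the syndecan gene Sdc4 by 1.59 ± 0.24 and Lrp1, an endocytic receptor for thrombospondin-1 and CCN2, by 1.54 ± 0.26. Itgb6, whose integrin activates latent TGF-beta, went from 546 and 207 gene reads to 23 and 23 (log2 -4.12 ± 0.32), all of them outside exons.

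The pathways known to regulate CCN and thrombospondin genes were mixed. In the TGF-beta and BMP list 7 of 17 genes rose, 2 fell and 8 did not pass, and the median log2 change was 0.56. Ltbp2 and Ltbp3, which bind latent TGF-beta or its matrix scaffold, rose by 2.16 ± 0.27 and 1.67 ± 0.23 on the log2 scale, and the ligand gene Tgfb2 rose by 1.33 ± 0.20. Tgfb1 had a log2 change of 0.47 and did not pass (edgeR adjusted p = 0.223). The activin gene Inhba rose by 2.04 ± 0.52, a call that fell away without WT replicate 1 (edgeR adjusted p = 0.0592) and on leaving out PRMT1-cKO replicate 1 (edgeR adjusted p = 0.117). The log2 change was 1.37 on leaving out that PRMT1-cKO heart.

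In the list of YAP, TEAD and SRF genes and targets 3 of 20 rose and 17 did not pass, with a median log2 change of 0.06. In exon reads 5 of them were tested, 2 rose and 3 did not pass, with a median log2 change of 0.77. The list holds regulators as well as targets and leaves out the matricellular genes, so Ctgf and Cyr61 do not count in it. The sarcomere stress gene Ankrd1 rose by a log2 change of 3.31 ± 0.33 and the TEAD cofactor gene Vgll3 by 1.74 ± 0.23. Axl, a receptor kinase, rose by 0.69 ± 0.20, a call that fell away without WT replicate 1 (edgeR adjusted p = 0.228), without WT replicate 2 (edgeR adjusted p = 0.139) and with DESeq2 (adjusted p = 0.0589). Unlike Vgll3, the transcription regulator genes Yap1, Wwtr1, Srf and Tead1 did not pass, with log2 changes of 0.11 for Yap1, -0.19 for Wwtr1, -0.04 for Srf and -0.53 for Tead1.

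**Figure D4:**
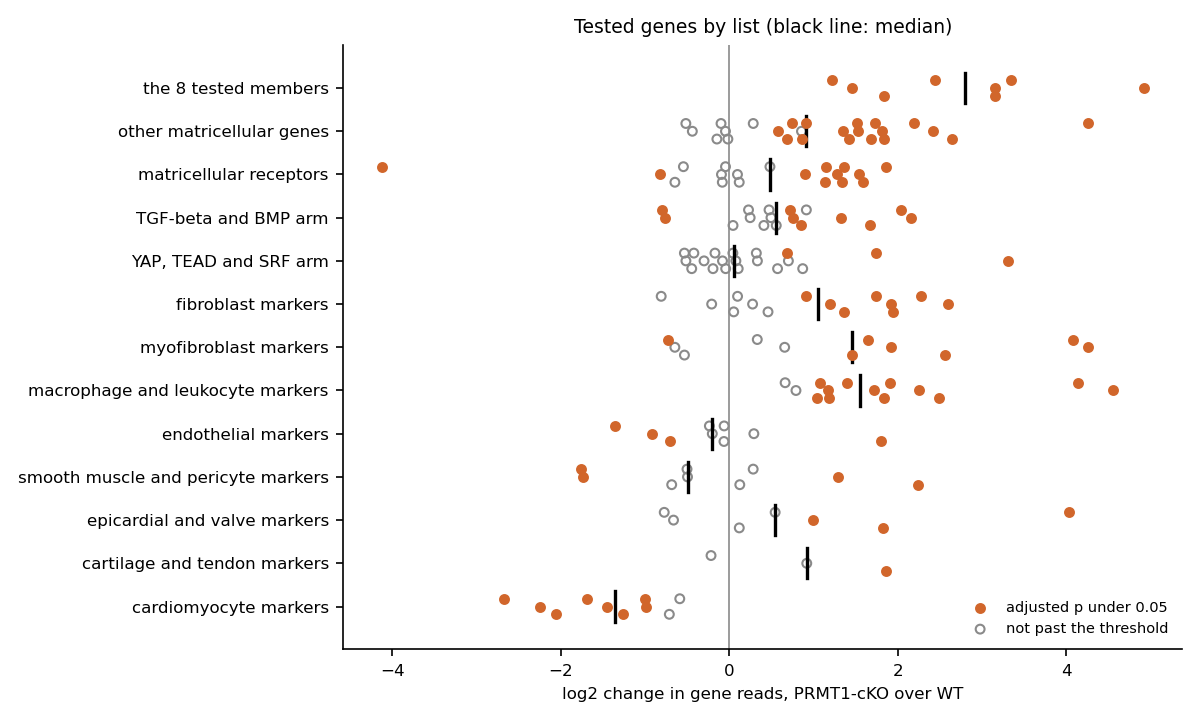
Log2 change in gene reads (x axis) of each tested gene by list (rows), with the list's median marked. The other matricellular genes and the fibroblast and leukocyte markers lie mostly above 0, and the cardiomyocyte markers mostly below.

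Markers of the cells known to make matricellular proteins moved in the same hearts, and their part in the rises was not tested. Of 14 fibroblast markers 8 rose and 0 fell (median log2 change 1.06), and their summed gene reads were 386 and 497 CPM in WT against 1135 and 697 in PRMT1-cKO. Col1a1 rose by a log2 change of 2.60, which was 1.92 without PRMT1-cKO replicate 1 and 3.21 without WT replicate 2. Col1a2 rose by 2.27, Tcf21, which encodes a transcription factor of fibroblasts, by 1.95 and Col3a1 by 1.92, or 1.21 without PRMT1-cKO replicate 1. Of 12 myofibroblast markers, which include Postn and Tnc, 11 were tested, 6 rose, 1 fell and 4 did not pass. Their median log2 change of 1.45 is the value of Postn itself. Their summed gene reads were 105 and 115 CPM in WT against 209 and 180 in PRMT1-cKO. In exon reads 6 of them were tested, 2 rose, 1 fell and 3 did not pass (median log2 change 0.20). Their summed exon reads were 1670 and 1912 CPM in WT against 1723 and 1587 in PRMT1-cKO. In gene reads Cilp rose by 4.08 ± 0.37, the crosslinking enzyme gene Lox by 2.56 ± 0.44 and Col8a1 by 1.92 ± 0.23. Of 16 leukocyte markers 14 were tested and 12 rose (median log2 change 1.56), and their sum was 32.0 and 37.8 CPM in WT against 106 and 78.7 in PRMT1-cKO. The neutrophil gene S100a8 rose by 4.55 ± 0.52, or 5.56 without WT replicate 1, and the macrophage gene Gpnmb by 2.26 ± 0.34. S100a9 went from 2 and 0 to 28 and 15 gene reads, a ratio of 19.3 with a counting interval from 5.02 to 164. Cd68, a lysosomal protein of macrophages, rose by 2.49 ± 0.66 (4.15 without WT replicate 2 and 1.57 without WT replicate 1), a call that fell away without WT replicate 1 (edgeR adjusted p = 0.234), on leaving out PRMT1-cKO replicate 1 (edgeR adjusted p = 0.0631) and with DESeq2 (adjusted p = 0.0520). No fibroblast or leukocyte marker was at 0 in all hearts.

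Markers of other cells of the heart were split. Of 10 cardiomyocyte markers 8 fell and 0 rose (median log2 change -1.35), among them Mb by a log2 change of -2.67, Tnni3 of -2.25, Atp2a2 of -2.05 and Myl3 of -1.69, and their sum went from 5154 and 5151 to 2406 and 2828 CPM. Epicardial and valve markers rose in 3 of 7 tested cases (median log2 change 0.55), Krt18 by 4.04 ± 0.39, Upk1b by 1.83 ± 0.30, and Msln, whose call was absent once WT replicate 2 was left out (edgeR adjusted p = 0.0613). Of 9 endothelial markers tested 1 rose and 3 fell (median log2 change -0.20), with Vwf at 1.81 ± 0.20, Kdr at -1.36 ± 0.20 and Tie1 at -0.91 ± 0.22, which no longer passed when WT replicate 2 was left out (edgeR adjusted p = 0.121). Flt1 at -0.71 ± 0.22 was lost without either WT heart (edgeR adjusted p = 0.232 and 0.231) and with a replicate block (edgeR adjusted p = 0.138). Of 9 genes listed for smooth muscle and pericytes 2 rose and 2 fell (median log2 change -0.49). Des, a muscle filament gene that is not particular to these cells, was at 2.24 ± 0.28. Cspg4 was at 1.29 ± 0.24, Smtn at -1.75 ± 0.21 and Abcc9 at -1.73 ± 0.22. Of 10 markers of cartilage and tendon, the tissues best known for Comp, 7 had too few reads to test. The other 3 had a median log2 change of 0.92, and of these Fmod, a collagen-binding proteoglycan, rose by 1.86 ± 0.50 (2.81 without WT replicate 1), a call that fell away without WT replicate 2 (edgeR adjusted p = 0.122), on leaving out PRMT1-cKO replicate 1 (edgeR adjusted p = 0.0729) and with DESeq2 (adjusted p = 0.0547).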

How the data were processed

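Total RNA from 2 WT and 2 PRMT1-cKO hearts was depleted of ribosomal RNA (RiboMinus) and sequenced with SOLiD total RNA chemistry, per the labels' protocols. The submitters' processing notes name GRCm38; which aligner and counter were used, and whether with strand, is not stated in the labels. The authors deposited counts of gene, exon and intron reads per gene, without normalization, per the file headers. They also deposited RPKM, which equals exon reads per kilobase of exon and per 1000000 gene reads when recomputed, quantile-normalized signal values, and the p-value and signed fold score of their EDGE test. The normalized signal and the fold score were not used. File starts count from 0 and are printed from 1.

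The tests used edgeR 4.0.16 under R 4.3.3 (TMM, filterByExpr at min.count 10 and min.total.count 15, glmQLFTest, two-sided, genotype as the only term), with Benjamini-Hochberg adjustment over all genes and a threshold of 0.05. diffSpliceDGE, with its Simes p-value, set exon against intron reads within a gene. CPM are per 1000000 reads of the tested genes, TMM-scaled. SE is the log2 change over the square root of F. The scripts were checked on simulated counts. Alternatives were DESeq2 1.42.0, other filters, a replicate block and leaving out each heart.

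All 10 genes were named; from each other list up to 4 genes past the threshold, by size of log2 change in gene reads (1 such gene is not reported here), and Nov, Wisp3, Thbs3, Tgfb1, Yap1, Wwtr1, Srf, Tead1 and Gm15270 were added after their values were seen. Genes and lists (other matricellular, receptors, TGF-beta and BMP, YAP with TEAD and SRF, and markers of fibroblasts, myofibroblasts, leukocytes, endothelium, smooth muscle, epicardium, cartilage and cardiomyocytes) were chosen with earlier results of these data known. Nothing says more of the replicates than that each is a heart, so p-values measure the spread between these samples. Intervals and floors cover counting error only.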

Additional observations from a re-analysis of the deposited data

How the results depend on the processing

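The 8 rises in gene reads remained 8 under every filter and with the replicate block, and were 7 with DESeq2 and without WT replicate 2, where Wisp1 did not pass. With each heart left out in turn, the genes called numbered between 1815 and 3664 in gene reads (3154 with all hearts, 1815 without WT replicate 1), between 1632 and 3036 in intron reads (2886), and between 25 and 274 in the exon against intron test (163), in which the matricellular genes called were 0 or 1. DESeq2 called 1096 genes in exon reads (1723 with edgeR) and 1783 in intron reads. The exon against intron test called 88 genes with no filter. Whether the replicate numbers pair the hearts is not known. The deviations of same-numbered hearts had a correlation of -0.21 over genes, which with 2 hearts per group cannot settle it. The replicate block gave 2806 genes in gene reads, 1583 in exon reads, 2561 in intron reads and 68 in the exon against intron test. The crossed replicate block, added after seeing the data, gave 4329, 1804, 3702 and 257. The intron change of Cyr61 lay between -0.0757 (without PRMT1-cKO replicate 1) and 1.25, and the Wisp2 exon minus intron difference, -0.37 with all hearts, lay between -1.30 and 3.35, with 0.20 without PRMT1-cKO replicate 2. The causes were not tested. Tnc, Spp1, the exon reads of Wisp1 and Postn, and those of Wisp2 in WT were few. With 2 hearts per group, a single heart can decide a call.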
